A study of Rattus norvegicus with 7 samples.

Results

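Endothelial cells line the blood vessels of the testis, and 10 of their marker genes are described here in rats given cadmium chloride: Kdr, Emcn, Cldn5, Pecam1, Cdh5, Tek, Flt1, Tie1, Vwf and Eng. Their probe sets were taken by name, as all probe sets that the annotation of the array assigns to 1 of these genes alone. That gave 12 probe sets for 9 of the 10 genes, among 20826 probe sets with 1 gene and 14217 such genes in all. Cdh5, the cadherin of endothelial junctions, was not analysed here. Kdr has 2 probe sets, Flt1 has 3 and the other 7 genes have 1 each; where a gene has several, the one with the highest mean signal leads. The levels of different probe sets cannot be set against each other, so each gene is compared with itself across arrays.

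Vessel walls are kept by signals that endothelial cells receive through receptor tyrosine kinases. Vascular endothelial growth factors act on Kdr and Flt1, and angiopoietins act on Tek, with Tie1 as its partner. Claudin 5, Pecam1 and VE-cadherin hold neighbouring endothelial cells together, and in rodents the lining of testicular vessels is known as an early target of cadmium salts.

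Adult male Sprague-Dawley rats, an outbred stock, had received cadmium chloride at 3 mg/kg body weight by the intraperitoneal route 8 h (n = 2) or 20 h (n = 2) before the testes were taken, and untreated rats gave the controls (n = 3). Total RNA of the testes was hybridized to 7 arrays, which the labels number as biological replicates without saying whether 1 rat or a pool gave each. No vehicle is named for the untreated rats. In whole testis, fewer endothelial cells, less of a transcript in each cell and a change in other cells that carry it cannot be told apart. The signal of a probe set is a brightness on a linear scale after each array was scaled to a trimmed mean of 250.1. The median signal of an array was 55.8 and 53.8 at 8 h and 63.2 and 52.9 at 20 h, against 72.0, 68.9 and 57.1 in untreated testis. On both 8 h arrays and 20 h replicate 2 it was below that of every untreated array.

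Per the instrument files, hybridization fell on 3 different days. Day 3 held both 8 h arrays, 20 h replicate 2 and untreated replicate 3, day 1 held 20 h replicate 1 and untreated replicate 1, and day 2 held untreated replicate 2 alone. Untreated replicate 2 was stained at 25 °C for 600 s, against 35 °C for 300 s on the other arrays, and its instrument file names mouse as the sample type although its labels name rat. The log2 ratio of 3′ to 5′ actin signal, a gauge of RNA integrity and labelling, was 1.39 and 1.422 at 8 h, 0.917 and 1.363 at 20 h, and 0.733 to 1.191 in untreated testis. It was therefore higher on both 8 h arrays and on 20 h replicate 2 than on any untreated array, and its part in the results at either time was not tested. Genes of the testis itself were bright on every array: Prm1, a protamine of spermatids, gave 18075.1 to 28755.9 on the cadmium arrays and 16767.1 to 28324.4 on the untreated arrays. The leading probe sets of the endothelial markers ranked between percentile 6.7 (Kdr on 8 h replicate 1) and percentile 77.2 (Cldn5 on 20 h replicate 2) of their array.

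The DNA just upstream of these genes is shown for the 3 markers with the lowest log2 fold change at 8 h on the log2(signal + 15) scale (Kdr, Emcn and Cldn5) and for Flt1, the 1 marker that was higher on 20 h replicate 1 than on the untreated array of its day. RefSeq promoter windows of build GRCr8, from 250 bases before to 50 after the gene start, matched 6 of the 10 genes: Kdr, Emcn, Cldn5, Flt1, Tie1 and Eng. ETS proteins are transcription factors that endothelial genes are known to use, and capitals mark the letters AGGAAG, the ETS motif searched here, on either strand.
Kdr, chr14:32571813-32572112, plus strand: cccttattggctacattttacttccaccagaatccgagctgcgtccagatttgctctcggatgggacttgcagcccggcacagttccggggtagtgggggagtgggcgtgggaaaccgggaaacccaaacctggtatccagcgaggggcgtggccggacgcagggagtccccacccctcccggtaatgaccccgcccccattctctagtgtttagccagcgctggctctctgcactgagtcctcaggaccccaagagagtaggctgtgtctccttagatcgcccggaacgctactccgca
Emcn, chr2:228564289-228564588, plus strand: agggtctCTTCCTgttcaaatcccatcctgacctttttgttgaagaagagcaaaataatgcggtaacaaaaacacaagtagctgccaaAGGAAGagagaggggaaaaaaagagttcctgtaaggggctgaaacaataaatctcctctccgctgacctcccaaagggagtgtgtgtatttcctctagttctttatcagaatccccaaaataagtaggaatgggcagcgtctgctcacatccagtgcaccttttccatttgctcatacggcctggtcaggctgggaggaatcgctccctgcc
Cldn5, chr11:95718549-95718848, minus strand: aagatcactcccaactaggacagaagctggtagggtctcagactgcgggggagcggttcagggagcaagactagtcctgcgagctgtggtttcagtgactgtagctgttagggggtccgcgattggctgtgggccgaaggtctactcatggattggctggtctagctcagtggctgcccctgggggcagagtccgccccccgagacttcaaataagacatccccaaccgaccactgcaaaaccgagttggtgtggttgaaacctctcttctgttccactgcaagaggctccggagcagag
Flt1, chr12:12333180-12333479, plus strand: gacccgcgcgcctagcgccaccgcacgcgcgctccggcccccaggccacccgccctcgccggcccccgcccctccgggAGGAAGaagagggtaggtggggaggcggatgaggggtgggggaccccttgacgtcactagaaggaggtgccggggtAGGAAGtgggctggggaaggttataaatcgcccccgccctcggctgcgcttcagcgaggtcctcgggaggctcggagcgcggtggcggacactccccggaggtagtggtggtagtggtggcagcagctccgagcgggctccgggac
The windows of Emcn and Flt1 hold 2 matches each, and those of Kdr and Cldn5 hold 0. Of the 6 windows, 4 have at least 1 match (Emcn, Flt1, Tie1 and Eng), where 34.5% of all 33469 rat windows of this length do. The motif of SP1, GGGCGG, is in 4 of the 6 (Kdr, Cldn5, Flt1 and Tie1) and in 33.1% of all windows. The SOX letters ACAAAG are in 2 of the 6 (Tie1 and Eng, against 18.8% of all windows) and the TATA box letters TATAAA in 1 (Flt1, against 14.2%). The FOX letters GTAAACA, the GATA letters AGATAA and the letters ACGTG of hypoxia elements are in 0 of the 6, and in 3.8%, 11.6% and 19.3% of all windows. All these motifs were searched on both strands, and none of them contains another. A match is a description of the sequence only.

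Kdr is the main signalling receptor for vascular endothelial growth factor. Its leading probe set (1367948_a_at) gave 3.7 and 28.5 at 8 h and 17.0 and 29.4 at 20 h, against 51.8, 59.5 and 55.7 in untreated testis. All 4 cadmium arrays lay below all 3 untreated arrays, and Kdr was the 1 marker of the 9 for which that held, against 4.90% of all probe sets tested and 1.82% above. On the scale of log2(signal + 15), on which all fold changes are given and which understates those of dim genes, its log2 fold change was -1.31 ± 0.43 (SE) at 8 h and -0.91 ± 0.43 (SE) at 20 h, with adjusted p = 0.836 and 0.999 in limma's test over all probe sets. Neither passed the threshold of 0.05. Kdr entered that test only through the untreated arrays, the 3 on which it stood above the 40th percentile, so nothing is read from the 4.90% beside it. Its other probe set (1397868_at) was near the floor everywhere, with 1.8 to 20.5 on the cadmium arrays and 4.0 to 8.1 on the untreated arrays, and was not tested.

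Flt1 binds the same growth factors with high affinity and, in its soluble form, holds them back. Its leading probe set (1369087_at) gave 72.7 and 76.2 at 8 h and 139.5 and 56.2 at 20 h, against 76.6, 104.7 and 148.1 in untreated testis. Both 8 h arrays lay just under the untreated range, while at 20 h replicate 1 was inside it and replicate 2 below it. The log2 fold change was -0.44 ± 0.36 (SE) at 8 h and -0.21 ± 0.36 (SE) at 20 h (limma, adjusted p = 0.842 and 0.999). All 3 probe sets of Flt1 had their lowest value on 20 h replicate 2, where 1370492_a_at gave 21.1 and 1377113_at gave 0.6. On 20 h replicate 1 they parted, with 44.0 for 1370492_a_at, its highest of the 7 arrays, and 13.1 for 1377113_at. Untreated values were 29.6 to 34.0 for 1370492_a_at and 17.4 to 27.1 for 1377113_at, and neither was bright enough to be tested.

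Tek, also called Tie2, is the angiopoietin receptor that steadies resting vessels. It gave 75.5 and 94.4 at 8 h and 20.5 and 81.6 at 20 h, against 91.3, 86.9 and 101.5 in untreated testis (1393067_at). The low value at 20 h was that of replicate 1, while 20 h replicate 2 lay just below the untreated range. The log2 fold change was -0.12 ± 0.39 (SE) at 8 h, turning to 0.07 under quantile normalization, and -0.88 ± 0.39 (SE) at 20 h (limma, adjusted p = 0.965 and 0.999). Tie1, the partner of Tek, gave 36.4 and 39.2 at 8 h and 8.8 and 39.4 at 20 h, against 60.8, 55.0 and 32.2 in untreated testis (1389324_at). The lowest of the 7 arrays was again 20 h replicate 1, and the other 3 cadmium arrays lay within the untreated range. Its log2 fold change was -0.26 ± 0.43 (SE) at 8 h and -0.81 ± 0.43 (SE) at 20 h (limma, adjusted p = 0.922 and 0.999).

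Cldn5 is the claudin that seals endothelial tight junctions. It gave 62.7 and 236.1 at 8 h and 52.5 and 252.9 at 20 h, against 241.2, 241.4 and 231.9 in untreated testis (1374104_at). The 3 untreated arrays lay close together, and at each time 1 cadmium array was near them and 1 was at a signal of 62.7 or less. Both group means had a wide error, 149.4 at 8 h (SD 123, n = 2) and 152.7 at 20 h (SD 142, n = 2), against 238.2 (SD 5.43, n = 3) in untreated testis. The log2 fold changes were -0.86 ± 0.57 (SE) at 8 h and -0.91 ± 0.57 (SE) at 20 h (limma, adjusted p = 0.836 and 0.999). The means stand for neither array of their pair.

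Emcn, an endothelial sialomucin that keeps leukocytes from sticking to the vessel lining, gave 16.9 and 35.9 at 8 h and 13.8 and 52.1 at 20 h, against 67.5, 66.3 and 51.3 in untreated testis (1372587_at). Both 8 h arrays and 20 h replicate 1 were below the untreated range, and 20 h replicate 2 was at its lower end. The log2 fold change was -0.92 ± 0.42 (SE) at 8 h and -0.80 ± 0.42 (SE) at 20 h (limma, adjusted p = 0.836 and 0.999). Its order of arrays followed that of Cldn5 in the 2 lowest places, held by 20 h replicate 1 and 8 h replicate 1. Pecam1, an adhesion molecule of endothelial junctions that platelets and leukocytes also carry, gave 14.9 and 29.9 at 8 h and 16.0 and 30.1 at 20 h, against 32.5, 36.4 and 5.2 in untreated testis (1371545_at). The lowest array was untreated replicate 3, so all cadmium arrays were within the untreated range. Pecam1 was at or under percentile 36.8 on every array, did not enter the test, and had log2 fold changes of -0.001 at 8 h and 0.03 at 20 h.

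Vwf, the clotting factor that endothelial cells store and release, gave 47.7 and 40 at 8 h and 39.1 and 86.9 at 20 h, against 70.4, 85.9 and 85.6 in untreated testis (1389234_at). Both 8 h arrays and 20 h replicate 1 lay below the untreated range, and 20 h replicate 2 was the highest of the 7. The log2 fold change was -0.70 ± 0.32 (SE) at 8 h and -0.36 ± 0.32 (SE) at 20 h (limma, adjusted p = 0.836 and 0.999). Eng, the TGF-beta co-receptor of endothelial cells, gave 68.2 and 92.8 at 8 h and 127.2 and 78.6 at 20 h, against 133.7, 136.3 and 100.7 in untreated testis (1372579_at). Both 8 h arrays were below the untreated range, and of the 20 h arrays it was replicate 2 that was below it. The log2 fold change was -0.54 ± 0.27 (SE) at 8 h and -0.25 ± 0.27 (SE) at 20 h (limma, adjusted p = 0.836 and 0.999).

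**Figure D1:**
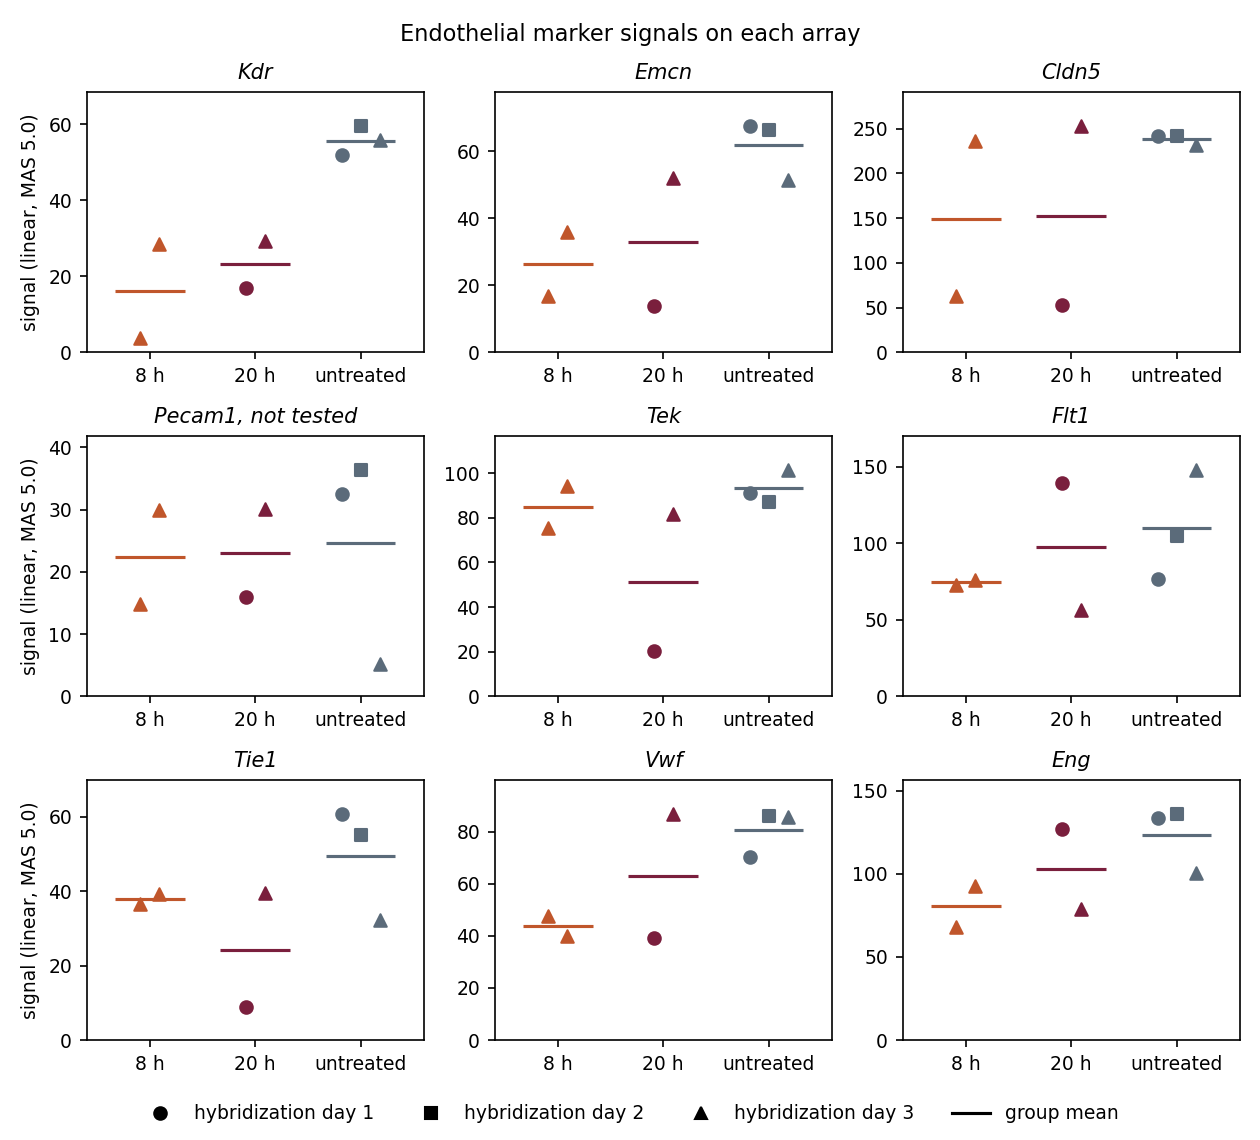
Signal (linear scale, vertical axis from 0) of the leading probe set of each of the 9 measured endothelial markers on every array, by group (8 h, 20 h, untreated), with the shape of a point giving its hybridization day and a line the group mean. Kdr has all cadmium arrays below all untreated arrays (at most 29.4 against at least 51.8), and Cldn5 has 1 array of each cadmium pair near the untreated arrays and 1 far below.

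Testes taken 8 h after the dose show the vessels' transcripts at an early time. All 9 measured markers had a mean log2 difference below 0 at 8 h, Pecam1 at -0.001 and turning above 0 under several settings, where 55.1% of all 11544 genes tested were below 0 (61.0% of all probe sets tested), and their median log2 fold change was -0.54, against -0.03 over all genes tested. In 5 of the 9, Kdr, Emcn, Flt1, Vwf and Eng, both 8 h arrays lay below all untreated arrays; over the 8 marker probe sets tested the count was also 5, and over all probe sets tested the share was 15.4%. Above all untreated arrays were 0 of the 8, against 7.59%. With limma's adjusted p at 0.05, 0 of the 8 marker probe sets were called, and so were 0% of the 20857 tested. At an unadjusted p under 0.05, 1 of the 8 was lower, Kdr, and 0 were higher, where 4.06% of all probe sets were lower and 1.16% higher at that level. Since Kdr was admitted to the test by its untreated arrays alone, nothing is read from that count, nor from Kdr as 1 of the 5 set beside 15.4%. The median without 8 h replicate 1 was -0.35 and without 8 h replicate 2 it was -0.60, and without untreated replicate 2, whose instrument file names another species, it was -0.47. Under quantile normalization it was -0.37, with 7 of the 9 lower, against 0.02 over all genes.

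Testes taken 20 h after the dose were compared with the same untreated arrays, so the results at both times are not independent. Of the 9 markers, 8 had a lower mean, Pecam1 being the exception, where 56.1% of all genes and 58.8% of all probe sets tested were lower. The median log2 fold change was -0.80, against -0.03 over all genes. Kdr and Tek were the 2 of the 8 tested probe sets with both 20 h arrays below all untreated arrays, where the share over all probe sets was 10.7%. Kdr was again admitted by its untreated arrays alone, so nothing is read from its place in that count. An untested probe set of Flt1 (1377113_at) made a further 1 of the 12. Above all untreated arrays were 0 of the 8, against 4.65%. At limma's adjusted p, 0 of the 8 and 0% of all probe sets were called. At an unadjusted p under 0.05, 1 of the 8 was lower, Tek, and 0 were higher, against 2.34% lower and 0.767% higher among all probe sets. The median rested largely on 20 h replicate 1: it was -0.19 without that array, -1.14 without 20 h replicate 2, and -0.73 without untreated replicate 2. With 50 in place of 15 added before the log it was -0.44, and with the mean over all probe sets of Kdr and Flt1 in place of the leading ones it was -0.36. Under quantile normalization it was -0.62, with 8 of the 9 lower, against -0.002 over all genes.

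**Figure D2:**
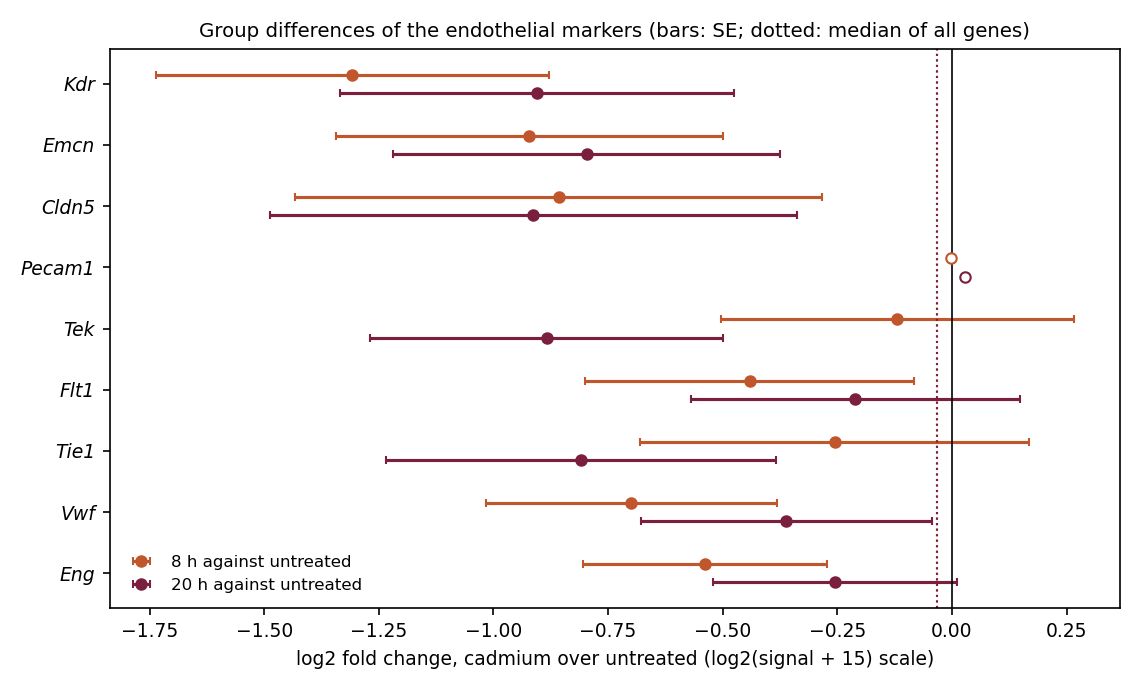
Log2 fold change of cadmium over untreated testis, on the log2(signal + 15) scale, for the 9 measured markers at 8 h and at 20 h; bars are standard errors from the limma fit, open points were not tested, and dotted lines mark the median of all genes tested (-0.03 at both times). Kdr had the largest distance from 0 at 8 h (-1.31), and none of the values passed the test.

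Set against each other, 20 h and 8 h testes did not differ in any marker past the threshold. The median log2 difference of 20 h over 8 h was 0.13, with 3 of 9 markers lower (47.4% of all probe sets tested), and it was -0.21 without 8 h replicate 1 and -0.24 without 20 h replicate 2. Tek had the largest difference, -0.77 ± 0.42 (SE; limma, adjusted p = 1.000), and Kdr had 0.40 ± 0.47 (SE; limma, adjusted p = 1.000). None of the 8 had an unadjusted p under 0.05, where 0.700% of all probe sets were lower and 1.22% higher at that level, and 0% passed the adjusted threshold. For 0 of the 8 did both 20 h arrays lie below both 8 h arrays, against 13.2% of all probe sets. These errors leave room for a difference in either direction. With the cadmium times averaged, 8 of 9 markers were lower than in untreated testis, with a median log2 fold change of -0.53 against -0.04 over all genes, and 61.9% of all probe sets were lower. Kdr (-1.11 ± 0.36, SE; limma, adjusted p = 0.855) and Emcn (-0.86 ± 0.35, SE; limma, adjusted p = 0.855) were the 2 of 8 lower at an unadjusted p under 0.05 (Kdr again admitted by its untreated arrays alone), where 3.67% of all probe sets were lower and 1.23% higher at that level. Again 0 of the 8 and 0% of all probe sets passed the adjusted threshold, and the F test over the 3 groups called 0 of the 8 and 0% of all probe sets (limma, lowest adjusted p of a marker 0.990).

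Counted array by array, 7 of the 9 markers lay below the untreated range on 8 h replicate 1, all but Pecam1 and Tie1, where 28.2% of all probe sets tested did. On 8 h replicate 2 there were 5 (Kdr, Emcn, Flt1, Vwf and Eng; 29.5% of all probe sets). On 20 h replicate 1 there were 6 (Kdr, Emcn, Cldn5, Tek, Tie1 and Vwf; 25.3%), and on 20 h replicate 2 there were 4 (Kdr, Tek, Flt1 and Eng; 31.1%). Above the untreated range stood 0 markers on 8 h replicate 1 (16.9% of all probe sets), 8 h replicate 2 (16.3%) and 20 h replicate 1 (19.4%). Cldn5 and Vwf did so on 20 h replicate 2 (16.8%). Kdr, which the filter admitted by its untreated arrays alone, is in each of the counts below the range. The signals of the 9 leading probe sets summed to 398.7 and 673.0 at 8 h and to 434.4 and 707.2 at 20 h, against 812.2 to 872.4 in untreated testis. Each cadmium sum was below each untreated sum, and Cldn5 made up much of the gap on the replicate 1 arrays.

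Each cadmium array was also set against the untreated array of its own day. On day 3 the 9 markers differed from untreated replicate 3 by a median of -0.68 for 8 h replicate 1 (7 markers below 0), -0.10 for 8 h replicate 2 (6 below) and 0.02 for 20 h replicate 2 (4 below). On day 1 the median difference of 20 h replicate 1 from untreated replicate 1 was -1.06, with 8 of 9 below 0. The median of all genes tested was between -0.03 and -0.01 in these 4 pairs, with 52.1% to 54.5% of genes below 0. Kdr had to be below 0 in all 4 pairs, since all its cadmium signals were below all its untreated signals. Its values were -1.92, -0.70, -1.06 and -0.67 in the order 8 h replicates 1 and 2 and 20 h replicates 1 and 2. Cldn5 had -1.67, 0.02, -1.92 and 0.12 in the same order. Pecam1 was above 0 in the 3 pairs of day 3, where its untreated array was the lowest of the 7, and at -0.62 on day 1. Tie1 likewise had 0.12, 0.20 and 0.21 in the 8 h and 20 h pairs of day 3 and -1.67 on day 1, so its mean at 8 h was lower than the untreated mean but not lower than its day's untreated array. Flt1 had -0.90 and -0.84 at 8 h, and at 20 h it had 0.75 for replicate 1 but -1.20 for replicate 2. With the day as a term in the fit, untreated replicate 2, alone on its day, no longer bears on the differences. The median of the 9 was then -0.56 at 8 h and -0.73 at 20 h, with 8 markers lower at each time, and 0 of the 8 tested passed. Within the arrays of day 3 alone it was -0.72 at 8 h and 0.02 at 20 h, where the 20 h group is 1 array.

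**Figure D3:**
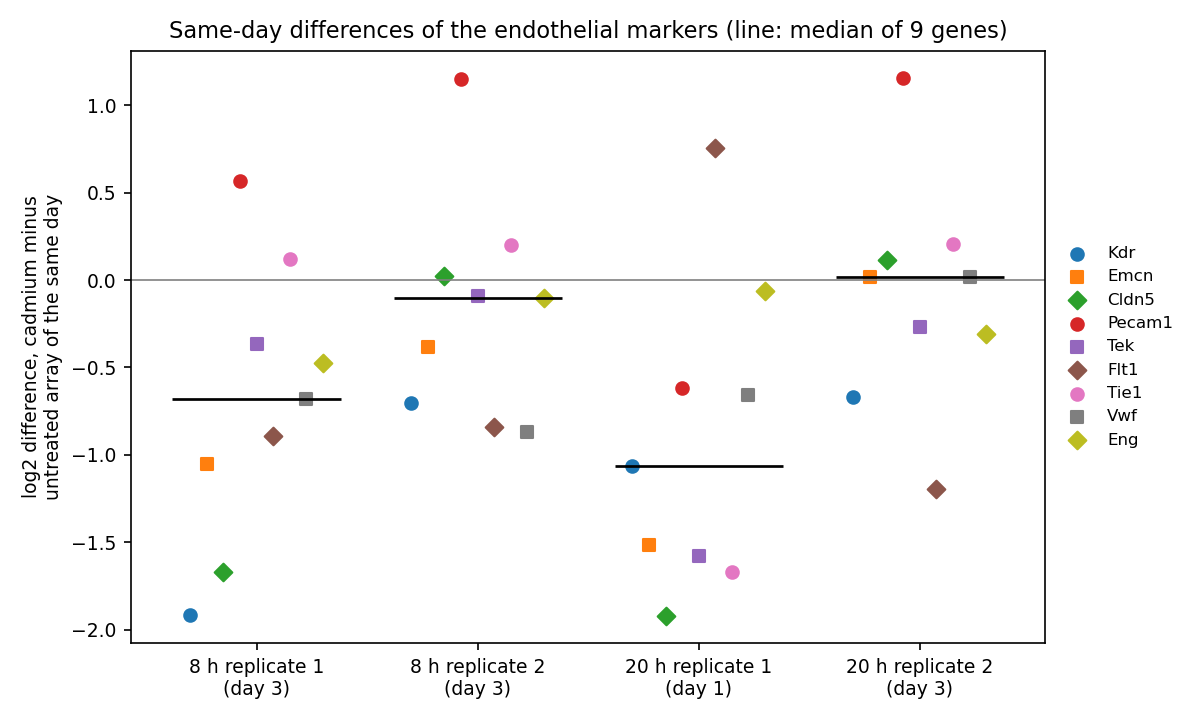
Log2 difference between each cadmium array and the untreated array of the same hybridization day (cadmium minus untreated), for the 9 measured markers (one colour and shape each); the black line is the median of the 9. The median is -0.68 and -0.10 on the 8 h arrays and -1.06 and 0.02 on the 20 h arrays. Kdr is below 0 in all 4, as it must be with all its cadmium signals below all its untreated signals.

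A wider list of 35 measured endothelial genes (of 39 listed) was set beside these markers. At 8 h 27 of the 35 were lower (median log2 fold change -0.26), where 55.1% of all genes tested were, and at 20 h 26 were (median -0.19), where 56.1% were. Of the 22 that were tested 0 passed limma's adjusted p at either time. At an unadjusted p under 0.05 there were 0 lower at 8 h, where 4.06% of all probe sets tested were lower. At 20 h there were 3 lower and 1 higher, where 2.34% of all probe sets were lower and 0.767% higher. These medians moved with the processing: with the day in the fit they were -0.06 at 8 h and -0.14 at 20 h, and under quantile normalization -0.08 and -0.06. Leaving out 20 h replicate 2 gave a 20 h median of -0.10, and leaving out untreated replicate 1 gave -0.30. The medians of the 9 markers lay further from 0 than those of the wider list, and that difference was not tested. Among the genes named by rule, Esam, an adhesion molecule of endothelial junctions, gave 63.7 and 66.6 at 8 h and 114.2 and 87.5 at 20 h, against 111.3, 136.4 and 77.8 in untreated testis, with both 8 h arrays below the untreated range. Egfl7, a protein that endothelial cells secrete, gave 95.8 and 56.7 at 8 h and 91.7 and 79.9 at 20 h, against 110.8, 98.2 and 70.3 in untreated testis. Nos3, the endothelial nitric oxide synthase, had log2 fold changes of -0.20 at 8 h and -0.02 at 20 h, and Icam2, a leukocyte ligand, had -0.35 and -0.21. Sox18, an endothelial transcription factor, had -0.27 and -0.32, and Plvap, which forms the diaphragms of fenestrae, had 0.40 and -0.33; neither was tested. Cd34 was not analysed here. The wider list holds genes that are not particular to endothelium in testis, such as Ace, of which male germ cells make an isoform of their own and whose signal was 3428.5 to 4285.2 on cadmium arrays and 3347.3 to 4420.1 on untreated arrays; Ace was singled out after its values were seen.

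Ligands and partners of the receptors were measured for 20 of 23 listed genes. Their median log2 fold change was -0.09 at 8 h and -0.09 at 20 h, and 0 of 16 tested passed at either time. Lower were 11 of 20 at 8 h and 12 of 20 at 20 h, near the 55.1% and 56.1% of all genes tested. Neither median had a stable direction. At 8 h it was -0.20 without 8 h replicate 1, 0.09 without 8 h replicate 2, and -0.03, -0.06 and -0.13 without untreated replicates 1, 2 and 3. At 20 h it was -0.27 without 20 h replicate 1, 0.11 without 20 h replicate 2, and -0.06, -0.09 and -0.20 without untreated replicates 1, 2 and 3. Under quantile normalization it was 0.10 at 8 h and 0.04 at 20 h. Vegfa, the growth factor that Kdr and Flt1 bind, gave 111.4 and 32.9 at 8 h and 578.8 and 35.5 at 20 h, against 95.7, 47.2 and 47.2 in untreated testis. The array with the highest Vegfa was thus 20 h replicate 1, the one with the lowest Tek, Tie1, Cldn5, Emcn and Vwf. On that array Flt1 (139.5), Eng (127.2) and Pecam1 (16.0) were within their untreated range, and Kdr was lowest on 8 h replicate 1 instead. A link to Vegfa was not tested. Vegfb had log2 fold changes of 0.32 at 8 h and 0.02 at 20 h, Vegfc -0.10 and 0.16, and Pgf, a ligand of Flt1, -0.38 and 0.13. Angpt2, the angiopoietin that opposes Tek signalling in most settings, had -0.08 and -0.30, and Angpt1, its agonist, was at or under 12.9 on every array. Nrp1, a co-receptor of Kdr, had 0.04 and -0.04, and Acvrl1, the receptor kinase that works with Eng, had 0.21 and 0.19. Edn1, the vasoconstrictor peptide of endothelial cells, gave 35.4 and 17.6 at 8 h and 77.4 and 24.2 at 20 h, against 59.8, 52.6 and 42.0 in untreated testis. Both 8 h arrays were below the untreated range, and the 20 h arrays lay on either side of it.

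Genes that stimulated endothelium switches on, among them leukocyte adhesion molecules and chemokines that other cells also make, numbered 15 measured of 16 listed. Of the 8 tested 0 passed at either time. At 8 h the median log2 fold change of the 15 was -0.08, with 9 lower, where 55.1% of all genes tested were lower. At 20 h it was 0.39, with 11 of 15 higher and 4 lower, where 56.1% of all genes were lower. The 20 h arrays did not share this: the summed signal of the list was 2975.7 on replicate 1 and 1027.2 on replicate 2, against 1058.1 to 1316.9 in untreated testis. The list's median log2 value, centred per gene, was 0.596 on replicate 1 and -0.223 on replicate 2, against -0.214 to 0.016 in untreated testis. Icam1, a leukocyte adhesion molecule, gave 77.2 and 16.6 at 8 h and 318.5 and 42.2 at 20 h, against 26.5, 45.0 and 59.8 in untreated testis. Its high array was 20 h replicate 1 as well. Vcam1 gave 380.2 and 347.5 at 8 h and 257.7 and 310.1 at 20 h, against 520.7, 426.2 and 284.2 in untreated testis. Selp, the P-selectin of platelets and endothelium, gave 37.4 and 40.6 at 8 h and 23.6 and 55.4 at 20 h, against 76.1, 51.6 and 76.5 in untreated testis, while Sele, the E-selectin, was at or under 21.2 on every array. For Selp both 8 h arrays and 20 h replicate 1 were below the untreated range, as they were for Emcn and Vwf. Of all probe sets tested, 15.4% had both 8 h arrays below that range. Selp did not pass (limma, adjusted p = 0.836 at 8 h and 0.999 at 20 h). Lyve1, a marker of lymphatic endothelium that some macrophages share, gave 48.6 and 39.3 at 8 h and 46.4 and 31.7 at 20 h, against 57.0, 27.6 and 7.2 in untreated testis. The 5 lymphatic genes had medians of -0.32 at 8 h and 0.17 at 20 h.

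Markers of the cells around and within vessels were read beside the endothelial ones. The 12 mural and peritubular myoid genes, all measured, had medians of -0.24 at 8 h, with 10 of 12 lower, and -0.08 at 20 h, with 8 of 12 lower, and 0 of 9 tested passed. Of all genes tested, 55.1% were lower at 8 h and 56.1% at 20 h. At 8 h the median was -0.06 under quantile normalization, -0.10 with the day in the fit and -0.13 without untreated replicate 1. At 20 h it was -0.23 without 20 h replicate 1, 0.020 without 20 h replicate 2, -0.04 without untreated replicate 1 and -0.16 without untreated replicate 2. Their summed signal was 2062.2 to 2121.8 at 8 h and 1902.4 to 2476.5 at 20 h, against 2094.6 to 2478.9 in untreated testis. Acta2, the smooth muscle actin of arterioles and peritubular myoid cells, had log2 fold changes of -0.04 and -0.08, and Pdgfrb, the receptor of pericytes, gave 7.5 and 9.9 at 8 h and 16.7 and 7.9 at 20 h, against 63.7, 20.1 and 11.4 in untreated testis, and was not tested. The 8 Leydig cell genes had medians of 0.22 at 8 h and -0.58 at 20 h, and their summed signal was lowest on 20 h replicate 1, at 2854.7, against 6223.9 to 8536.1 in untreated testis. The 6 measured red cell and platelet genes of 11 listed had medians of -0.19 at 8 h and -0.21 at 20 h, with summed signals of 2017.7 to 2596.1 at 8 h and 2490.6 to 3662.4 at 20 h, against 1732.9 to 2739.6 in untreated testis. The 12 macrophage and leukocyte genes had medians of 0.19 at 8 h and 0.14 at 20 h, with 0 passing. Of the cells of the tubule, the 7 Sertoli cell genes had medians of -0.04 at 8 h and 0.03 at 20 h, and the 6 spermatocyte genes 0.20 and 0.27. The 9 spermatid genes had 0.29 and 0.11. All 9 were higher at both times with 0 passing, where 55.1% and 56.1% of all genes were lower. Their summed signal differed by hybridization day. On day 3 it was 140614.9 to 148731.1 on the cadmium arrays and 148119.8 on the untreated array. On day 1 it was 103166.0 on 20 h replicate 1 and 106714.1 on untreated replicate 1. Untreated replicate 2, alone on day 2, had 97835.5. The part of these cells in the endothelial values was not tested.

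**Figure D4:**
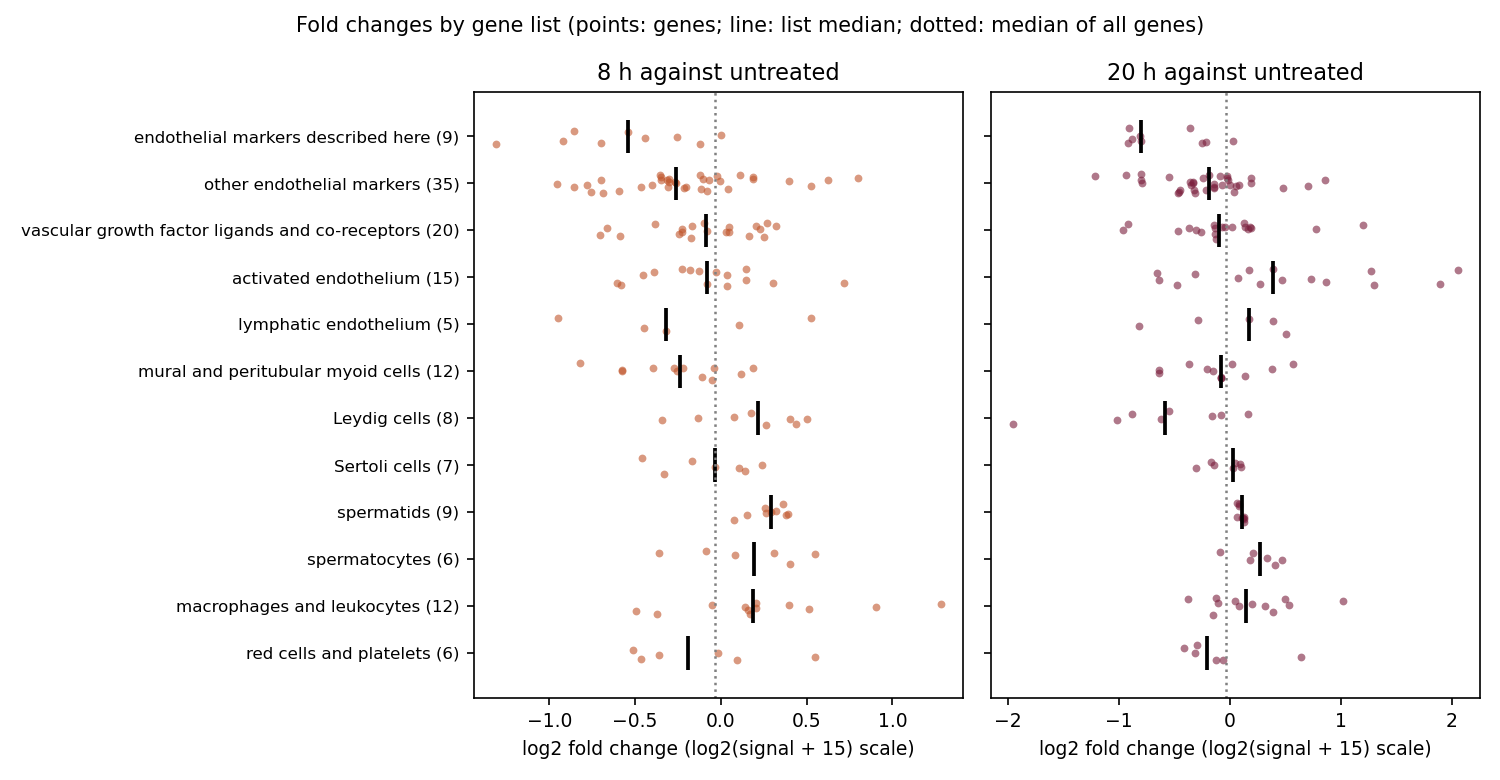
Log2 fold change of cadmium over untreated testis at 8 h (left) and 20 h (right), on the log2(signal + 15) scale, for each measured gene of 12 lists (the number of genes is in brackets, 1 probe set each); black lines are list medians and the dotted line is the median of all genes tested. The endothelial markers described here have medians of -0.54 and -0.80, and the wider list of endothelial genes -0.26 and -0.19.

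A mean profile of the 9 markers across arrays was taken from their log2 values, each centred on its own mean over the 7 arrays. That mean profile was -0.51 and 0.02 at 8 h and -0.58 and 0.09 at 20 h, against 0.35, 0.43 and 0.20 in untreated testis. Emcn was closest to the mean of the other 8, with a root mean square difference of 0.245, and Flt1 was furthest, with 0.655. Among 11536 other genes, for which the median difference from the profile was 0.421, the 6 nearest were Mycn (0.103), Hepacam (0.105), Zfp710 (0.133), Csf1r (0.136), Nudt7 (0.136) and Nrip1 (0.141). Csf1r, the receptor of macrophage colony-stimulating factor, gave 70.8 and 102.1 at 8 h and 80.0 and 110.0 at 20 h, against 127.5, 122.9 and 128.9 in untreated testis. Mycn, a transcription factor of the Myc family, gave 48.7 and 70.6 at 8 h and 46.7 and 77.9 at 20 h, against 84.0, 87.1 and 76.0 in untreated testis. Each of these is a description over 7 arrays, and with that many genes to choose from some lie close to any profile.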

How the data were processed

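Per the submitters' processing notes, MAS5 made the deposited signal values, a linear intensity for every probe set, and each array has the same trimmed mean. Other settings (stain, protocol, sample type) come from the deposited instrument files, per the file headers. Probe sets were named through the platform annotation, which gave 1 gene for 20826 of 31099, several for 436 and none for 9780, the other 57 being control probe sets.

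The scale used was log2(signal + 15), where 15 is near the 20th percentile over the arrays. Of the probe sets, 20857 exceeded the 40th percentile of the array in 2 or more arrays and were tested with limma 3.58.1 in R 4.3.3, with the 3 groups in 1 fit, an intensity trend and Benjamini-Hochberg adjustment over all of them at 0.05. With 7 arrays the number of arrays limits precision. The p-values set differences of group means against the spread between arrays within groups, estimated jointly for the 3 groups and moderated by the trend. That spread takes in hybridization day and staining, and whether it is between single rats or pools is not stated. Further genes were named from a written list of vascular genes, and the 6 nearest profiles by root mean square difference. The markers, lists and rules were chosen with earlier results of these data known. Alternatives are named in the closing section. The fit was tested on simulated data.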

Additional observations from a re-analysis of the deposited data

How the results depend on the processing

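None of the 8 tested markers passed limma's adjusted p under any setting run: a pseudocount of 1 or 50, no filter or the 60th percentile, quantile or 75th percentile scaling, the hybridization day or the replicate number as a block, no intensity trend, the day 3 arrays alone, or each array left out. Up to 10 of all probe sets passed with the day 3 arrays alone and up to 8 with 1 array left out, among them 0 markers. In those, 8, 2 and 10 passed with the day 3 arrays alone for 8 h, 20 h and both times, 1 each for 8 h, both times and 20 h against 8 h without 8 h replicate 2 (0 for 20 h), and 8 at 20 h and 1 for 20 h against 8 h without 20 h replicate 2.

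The median log2 fold change of the 9 markers at 8 h ran from -0.66 to -0.35 with 1 array left out, and kept its direction under every setting. At 20 h it ran from -1.14 to -0.19 with 1 array left out, and was -0.44 with a pseudocount of 50, -0.36 as a mean over all probe sets of a gene and 0.017 with the day 3 arrays alone. For 20 h against 8 h it ran from -0.24 to 0.32, and for both times against untreated testis from -0.83 to -0.39. The cause of these moves was not tested.

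Single markers turned direction in 48 of 612 values, 20 of them for Pecam1. With the day as a block, Cldn5 had 0.43 and Pecam1 -0.14 for 20 h against 8 h, and Pecam1 0.41 at 8 h. With the day 3 arrays alone, 20 h against 8 h gave Cldn5 0.94, Eng -0.017, Flt1 -0.33 and Tie1 0.044. There, 20 h gave Cldn5 0.12, Emcn 0.017, Tie1 0.21 and Vwf 0.019, 8 h gave Pecam1 0.86 and Tie1 0.16, and both times gave Tie1 0.18. Pecam1 had -0.011 at 20 h and -0.018 at both times with a pseudocount of 50, 0.16 at 8 h with a pseudocount of 1, 0.17 under quantile normalization and 0.079 under 75th percentile scaling, and Tek had 0.069 at 8 h under quantile normalization.

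With 1 array left out, the ranges that crossed 0 for 20 h against 8 h were Cldn5 -1.05 to 0.94, Emcn -0.48 to 0.74, Eng -0.017 to 0.59, Flt1 -0.33 to 0.79, Kdr -0.21 to 1.01, Pecam1 -0.26 to 0.32, Tie1 -1.15 to 0.044 and Vwf -0.12 to 0.80. At 20 h they were Cldn5 -1.91 to 0.082, Eng -0.55 to 0.048, Flt1 -0.77 to 0.35, Pecam1 -0.40 to 0.30 and Vwf -0.82 to 0.10. At 8 h they were Pecam1 -0.43 to 0.29 and Tek -0.26 to 0.018, and for both times Pecam1 -0.42 to 0.26.

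The groups share replicate numbers. Replicate 1 minus replicate 2 was taken in each group and correlated between groups over 11544 genes. The correlations were -0.02 (8 h and untreated), 0.08 (20 h and untreated) and 0.17 (20 h and 8 h), so the numbers were not taken to pair the samples. Untreated replicate 3 did not enter. With the replicate block the markers' median was -0.66 at 8 h, -0.83 at 20 h, 0.13 for 20 h against 8 h and -0.52 for both times, 0 probe sets passed, and Flt1 had 0.002 at 20 h, Pecam1 -0.40 at 20 h and -0.42 at both times. Untreated replicate 3 is the only array of its number, so that block removes it from the differences. These medians equal those with that array left out.

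Pecam1, the other probe set of Kdr and 2 of the 3 of Flt1 were too dim to test, and a signal near the floor has little meaning as a fold.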
